A study of Mus musculus with 6 samples.

Results

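The common gamma chain (*Il2rg*) is the receptor subunit shared by the cytokines that *Il2*, *Il4*, *Il7*, *Il9*, *Il15*, and *Il21* encode. Described here are 10 genes of 46078 in the count tables, which are this chain, chains that pair with it or with its partners, and a ligand. They were chosen by name with the counts of infarcts and contralateral cortices already known, so their differences between these regions are given as a description and without a test. Of the 10 genes, 8 are chains of common gamma chain or type 2 receptors. *Il15* encodes a ligand, and *Il10ra* encodes the ligand-binding chain of the interleukin-10 receptor, which belongs to another receptor class and does not use the common gamma chain.

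The tissue came from wild type male C57BL/6J mice with a recorded age of 3 months, 7 weeks after stroke. Stroke was induced by permanent occlusion of the middle cerebral artery followed by hypoxia. The dissected infarct (*n* = 3 libraries) was compared with the equivalent region of the contralateral cortex (*n* = 3), which had also been exposed to systemic hypoxia and is not cortex of an uninjured mouse. The sample records name no drug treatment for either region and do not state that the libraries of a region came from separate mice, so *p* values measure only the spread between these samples.

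Receptors of this family carry no enzyme of their own. A private chain sets which cytokine is bound, the common gamma chain brings the kinase encoded by *Jak3* and most private chains bring that of *Jak1*, and the kinases then phosphorylate STAT factors that enter the nucleus. Lymphocytes depend on these signals for survival and growth. In macrophages and microglia, the chain encoded by *Il4ra* pairs either with the common gamma chain or with that of *Il13ra1* and directs alternative activation through STAT6, whereas *Il10ra* signals through STAT3 and dampens inflammation.

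Expression is given as raw counts and as CPM, a gene's counts in every 1000000 of the library after scaling with edgeR's TMM method. Counts on genes totaled between 11943570 and 19933962 per library. Gene positions are those of GENCODE M21 on GRCm38. All 10 genes passed the filter on low counts. A gene was called higher or lower if its *p*, adjusted by Benjamini and Hochberg's method, was under 0.05 and the change exceeded 2-fold. By this rule 9 of the 10 genes were called higher in infarcts and 0 lower, against 25.7% and 20.9% of the 15554 genes tested. The infarct libraries lay above all contralateral libraries for 9 of the 10 genes and for 37.6% of all genes tested. Nothing is read from these counts, since the same contrast was known when the genes were chosen. The median log2 ratio of infarct over contralateral cortex (log2FC) was 3.86 over the 10 genes and 0.03 over all genes tested. In tissue homogenates, fewer cells of a type and less RNA per cell cannot be told apart.

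*Il2rg* (ENSMUSG00000031304, chromosome X, 101264378 to 101268255) had 301, 140 and 115 counts in infarcts 1, 2 and 3, against 1, 1 and 5 in contralateral cortices 1, 2 and 3. The regions were far apart, and infarct 1 held more than the other infarcts. Expression was 14.0 ± 8.69 CPM in the infarcts against 0.193 ± 0.233 CPM in contralateral cortices (SD, *n* = 3 each), with a fitted log2FC of 6.39 (SE, the standard error of the fit, 0.75). This size rests on 7 contralateral counts in all, and it was 7.72 without contralateral cortex 3 and 5.78 without infarct 1. The gene model *Gm20489* shares 30.5% of the exonic sequence of *Il2rg* in the same orientation. *Gm20489* had 0 counts in every library, and htseq-count by default discards reads that fall on both genes, although the mode used is not given in the sources used here.

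*Il7r* (ENSMUSG00000003882, chromosome 15, 9505788 to 9530176) encodes the chain that binds interleukin-7 and, with the chain of *Crlf2*, thymic stromal lymphopoietin. It had 3648, 3880 and 3386 counts in infarcts 1, 2 and 3, against 18, 16 and 16 in contralateral cortices 1, 2 and 3. Both regions were even among their libraries, and the highest infarct stood only 1.26-fold above the lowest. Its 269 ± 32.8 CPM in the infarcts against 1.15 ± 0.285 CPM in contralateral cortices gave a log2FC of 7.90 (SE 0.23), the largest of the 10 genes, and it ranged from 7.74 to 8.07 with each library left out in turn.

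*Il15ra* (ENSMUSG00000023206, chromosome 2, 11705290 to 11734317), which encodes the chain that presents interleukin-15 to neighboring cells, was the exception. It had 46, 56 and 37 counts in infarcts 1, 2 and 3, against 64, 26 and 17 in contralateral cortices 1, 2 and 3. On the CPM scale these were 3.66, 4.11 and 2.53 in infarcts and 3.34, 1.69 and 1.57 in contralateral cortices, so that contralateral cortex 1 lay within the range of the infarcts. The log2FC was 0.61 (SE 0.38), and 1.05 without contralateral cortex 1, where it passed both thresholds.

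Sequences before a RefSeq start site are shown for these 3 genes, as the shared chain, the gene with the largest difference and the gene whose regions overlapped. They are RefSeq promoter windows on GRCm38.p6, printed 5′ to 3′ on the strand of the gene and without the bases that a GENCODE exon covers. *Il2rg* is at chrX:101268256-101268505 and *Il7r* at chr15:9529877-9530040, both on the minus strand, and *Il15ra* is at chr2:11705043-11705289 on the plus strand. The *Il7r* stretch lies inside the gene as GENCODE places it. It is upstream of a RefSeq start within the gene and not of the GENCODE gene start. Capitals mark matches to TTCNNNGAA, a palindrome bound by STAT factors, in *Il7r*, and to GAGGAAG, a core bound by PU.1 and related ETS factors, in *Il15ra*, where it is on the opposite strand.
Il2rg: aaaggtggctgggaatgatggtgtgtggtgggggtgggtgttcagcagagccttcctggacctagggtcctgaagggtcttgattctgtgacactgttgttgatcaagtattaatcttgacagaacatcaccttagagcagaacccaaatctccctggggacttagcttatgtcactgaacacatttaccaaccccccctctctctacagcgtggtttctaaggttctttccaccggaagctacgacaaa
Il7r: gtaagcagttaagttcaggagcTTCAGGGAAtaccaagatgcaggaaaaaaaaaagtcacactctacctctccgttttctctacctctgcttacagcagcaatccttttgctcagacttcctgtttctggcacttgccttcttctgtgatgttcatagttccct
Il15ra: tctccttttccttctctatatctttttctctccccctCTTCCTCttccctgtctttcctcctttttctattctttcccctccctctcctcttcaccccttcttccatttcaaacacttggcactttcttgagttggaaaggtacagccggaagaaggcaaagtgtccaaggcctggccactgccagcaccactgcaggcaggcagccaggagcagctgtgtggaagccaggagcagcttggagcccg

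RefSeq windows were found for 7 of the 10 genes, as 8 windows of 250 bases before a start site, and both strands were searched. The match in *Il7r* began 142 bases before the RefSeq start, inside the GENCODE gene, and was the only match to TTCNNNGAA in the 8 windows. Of all 32851 windows of this length, 7.02% held it. GAGGAAG was found in 1 of the 8 windows, 213 bases before the start of *Il15ra*, and in 10.6% of all windows. The STAT palindrome with a further base between its arms was in 0 of the 8 windows and in 5.85% of all windows. These are matches of letters and say nothing about binding.

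The other chains that use *Il2rg* for interleukins 2 and 15 were at low levels in contralateral cortices. *Il2rb* (ENSMUSG00000068227, chromosome 15, 78479256 to 78495271), the signaling chain for both cytokines, had 611, 299 and 194 counts in infarcts 1, 2 and 3, against 8, 2 and 5 in contralateral cortices. Infarct 1 was again the highest, 3.68-fold above the lowest infarct on the CPM scale, and no contralateral library came near an infarct. Its log2FC was 6.36 (SE 0.68), and 5.71 without infarct 1. *Il2ra* (ENSMUSG00000026770, chromosome 2, 11642807 to 11693193), the chain that raises affinity for interleukin-2 and marks activated and regulatory T cells, had 54, 24 and 23 counts in the infarcts against 0, 5 and 5 in contralateral cortices. Its log2FC of 3.40 (SE 0.80) ranged from 2.67 without contralateral cortex 1 to 4.01 without contralateral cortex 3. For every 100 counts of *Il2rb* there were 8.84, 8.03 and 11.9 counts of *Il2ra* in infarcts 1, 2 and 3. The values in contralateral cortices 1, 2 and 3 were 0, 250 and 100, and rest on 8 counts or fewer of either gene. *Il2ra* and *Il15ra* are neighbors, 12097 bases apart on the same strand.

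*Il21r* (ENSMUSG00000030745, chromosome 7, 125603429 to 125633570), the private chain for interleukin-21, a cytokine of helper T cells, had 295, 227 and 208 counts in infarcts 1, 2 and 3, against 31, 9 and 13 in contralateral cortices 1, 2 and 3. The log2FC was 3.97 (SE 0.36), from 3.64 without contralateral cortex 2 to 4.37 without contralateral cortex 1. *Il4ra* (ENSMUSG00000030748, chromosome 7, 125552120 to 125579474) lies 23955 bases before *Il21r* on the same strand. It had 1460, 1339 and 1076 counts in infarcts 1, 2 and 3, against 169, 153 and 103 in contralateral cortices 1, 2 and 3, or 96.0 ± 21.5 and 9.43 ± 0.571 CPM. Unlike *Il2rg* and *Il2rb*, it was counted over 100 times in each contralateral library, and its log2FC was 3.35 (SE 0.20).

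*Il13ra1* (ENSMUSG00000017057, chromosome X, 36112110 to 36171259), which completes the type 2 receptor for interleukins 4 and 13, had 2615, 2335 and 1865 counts in infarcts 1, 2 and 3, against 210, 228 and 132 in contralateral cortices 1, 2 and 3. Expression was 169 ± 40.6 CPM in the infarcts against 12.7 ± 1.98 CPM in contralateral cortices, a log2FC of 3.74 (SE 0.22). *Il10ra* (ENSMUSG00000032089, chromosome 9, 45253837 to 45269149) had 2075, 1738 and 1706 counts in the infarcts against 165, 85 and 86 in contralateral cortices, with a log2FC of 4.21 (SE 0.23). The 3 infarcts were closer to each other for these chains than for *Il2rg*, *Il2ra*, and *Il2rb*. *Il15* (ENSMUSG00000031712, chromosome 8, 82331632 to 82403222), the ligand among the 10 genes, had 46, 56 and 45 counts in infarcts 1, 2 and 3, against 13, 9 and 8 in contralateral cortices. Its 3.62 ± 0.522 CPM in the infarcts against 0.668 ± 0.0768 CPM in contralateral cortices gave a log2FC of 2.43 (SE 0.35), the smallest among the 9 genes whose regions did not overlap.

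**Figure D1:**
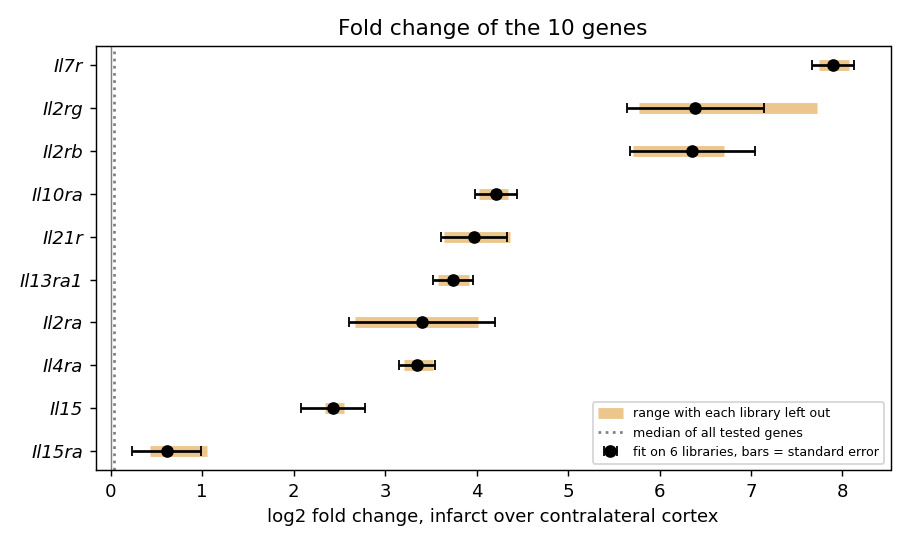
The log2FC of the 10 genes, infarct over contralateral cortex, on the horizontal axis. Points are the fit on all 6 libraries with bars of 1 standard error, orange bands give the range with each library left out in turn, and the dotted line is the median of all tested genes (0.03). *Il7r* lies at 7.90 and *Il15ra* at 0.61, and the widest band is that of *Il2rg*, from 5.78 to 7.72.

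To compare genes with each other, CPM was divided by the length of the exons in kb. In infarcts *Il7r* had the highest level, at 57.7 ± 7.04 CPM per kb, followed by *Il13ra1* at 45.5 ± 10.9 and *Il10ra* at 39.0 ± 7.32. Neighbors in this order overlapped between libraries, from *Il7r* to *Il10ra*. *Il4ra* followed at 16 ± 3.59 CPM per kb, without overlap on either side. *Il2rb* (6.52 ± 4.31), *Il2rg* (5.88 ± 3.64) and *Il21r* (5.45 ± 1.45) overlapped their neighbors in the order and were followed by *Il15* at 1.60 ± 0.231, *Il15ra* at 0.772 ± 0.184 and *Il2ra* at 0.446 ± 0.267 CPM per kb, of which *Il15ra* and *Il2ra* overlapped. The level of the shared chain was thus about that of *Il2rb* and *Il21r* and below that of *Il7r* and *Il4ra* in every infarct, and reads shared with *Gm20489* may be missing from it.

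The order differed in contralateral cortices. *Il13ra1* led with 3.41 ± 0.534 CPM per kb, followed by *Il10ra* at 2.11 ± 0.463 and *Il4ra* at 1.57 ± 0.0951, whereas *Il7r* stood at position 7 with 0.247 ± 0.0611 CPM per kb. *Il7r* was above 96.6% of all tested genes per kb in infarcts and above 8.83% in contralateral cortices. *Il2rg* was above 60.4% in infarcts and 3.85% in contralateral cortices, and *Il15ra* above 15.9% and 15%.

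**Figure D2:**
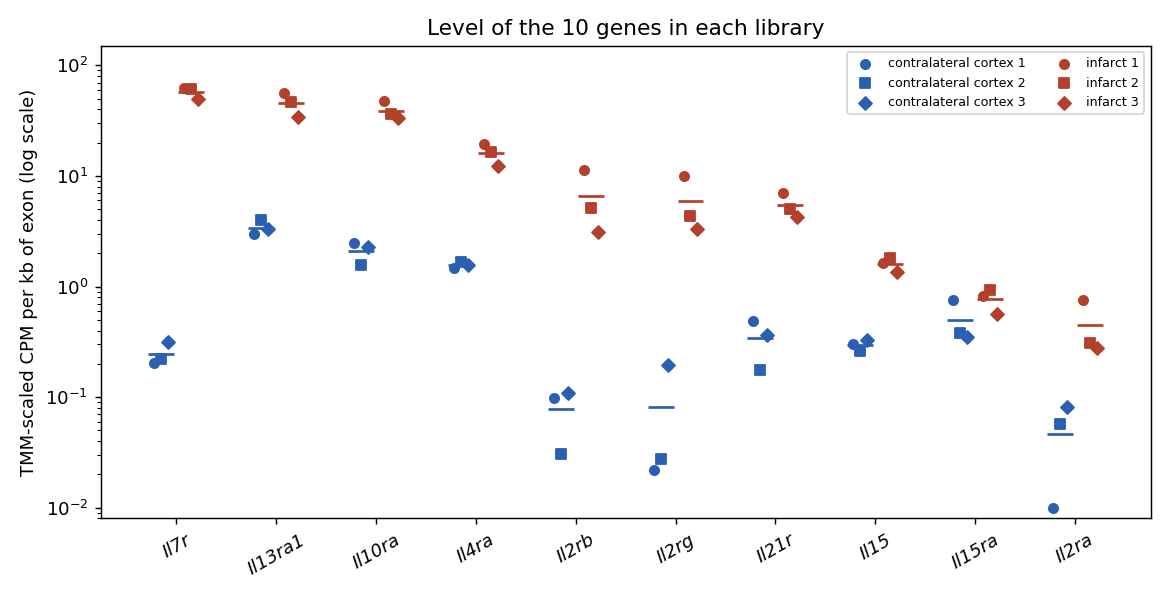
Level of the 10 genes in each library as TMM-scaled CPM per kb of exon, on a log axis, with genes ordered by their mean in infarcts. Red symbols are the 3 infarcts, blue symbols the 3 contralateral cortices, lines the means, and a value of 0 is drawn at 0.01. Red and blue symbols are apart for all genes except *Il15ra*, and infarct 1 is the highest infarct for all genes except *Il15* and *Il15ra*.

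The infarcts differed in the RNA of cell type markers. Summed over 10 T cell marker genes, expression was 179, 75.3 and 47.9 CPM in infarcts 1, 2 and 3, against between 2.61 and 3.65 CPM in contralateral cortices, where 3 of the markers (*Cd3d*, *Cd8a*, and *Cd2*) were at 0 in all libraries. All 9 tested T cell markers were called higher in infarcts. For this and the following lists, the shares of all tested genes called were 25.7% higher and 20.9% lower. The 7 B cell markers, all called higher, summed to 314, 157 and 136 CPM in infarcts 1, 2 and 3, and the 6 natural killer cell markers, also all called higher, to 26.1, 24.7 and 13 CPM. Of these markers, 6 T cell, 4 B cell and 6 natural killer cell genes had 3 counts or fewer in every contralateral library and could be tested only through the infarcts. The 4 plasma cell markers summed to 2150, 848 and 255 CPM in infarcts 1, 2 and 3, against between 2.51 and 5.63 CPM in contralateral cortices, and 3 were called higher. The 7 dendritic cell markers, of which 5 were called higher, ranged from 306 to 483 and from 25.4 to 26.8 CPM. *Itgax* made up most of this sum in infarcts 1, 2 and 3, with 432, 295 and 274 CPM. *Flt3* and *Zbtb46* were not called, with a log2FC of -0.54 and -0.39. The 5 fibroblast markers, all called higher, ranged from 4670 to 5790 and from 133 to 169 CPM. *Mzb1* among the plasma cell markers, and *Xcr1* and *Ccr7* among the dendritic cell markers, could also be tested only through the infarcts. The 9 macrophage markers, all called higher, ranged from 5960 to 9540 CPM in the infarcts against from 154 to 212 CPM in contralateral cortices, and the 6 markers of homeostatic microglia, of which 3 were called higher, from 808 to 840 and from 264 to 308 CPM. The 5 neuronal markers, all called lower, ranged from 428 to 1140 CPM in the infarcts against from 6690 to 7760 CPM in contralateral cortices.

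The 10 genes differed in how far the infarcts lay apart. The ratio of the highest to the lowest infarct was 3.68 for *Il2rb*, 3.05 for *Il2rg*, 2.74 for *Il2ra*, and 3.74 for the T cell markers. It was 8.43 for the plasma cell markers, 2.31 for the B cell markers, 2.01 for the natural killer cell markers and 1.60 for the macrophage markers. These list ratios are of summed CPM, in which *Jchain* dominates the plasma cell list and *Lyz2* the macrophage list. Single plasma cell markers ranged from 1.36 for *Sdc1* to 23.3 for *Tnfrsf17*, which had 40, 12 and 2 counts in infarcts 1, 2 and 3. Single macrophage markers ranged from 1.14 for *Itgam* to 1.71 for *Ccr2*. Single T cell markers ranged from 2.59 for *Cd5* to 7.59 for *Cd3d*. Those of B cells ranged from 1.35 for *Cr2* to 3.67 for *Cd79a*, and those of natural killer cells from 1.17 for *Klra8* to 5.5 for *Eomes*. The ratios of *Il2rg* and *Il2ra* lay within all of these lymphocyte ranges. For the other 7 of the 10 genes the ratio ranged from 1.26 for *Il7r* to 1.66 for *Il21r*. Infarct 1 had the highest CPM for 8 of the 10 genes, all except *Il15* and *Il15ra*. *Il7r*, although a gene of resting T cells too, thus varied less than the T cell markers. The part of cell composition in the differences between regions was not tested.

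**Figure D3:**
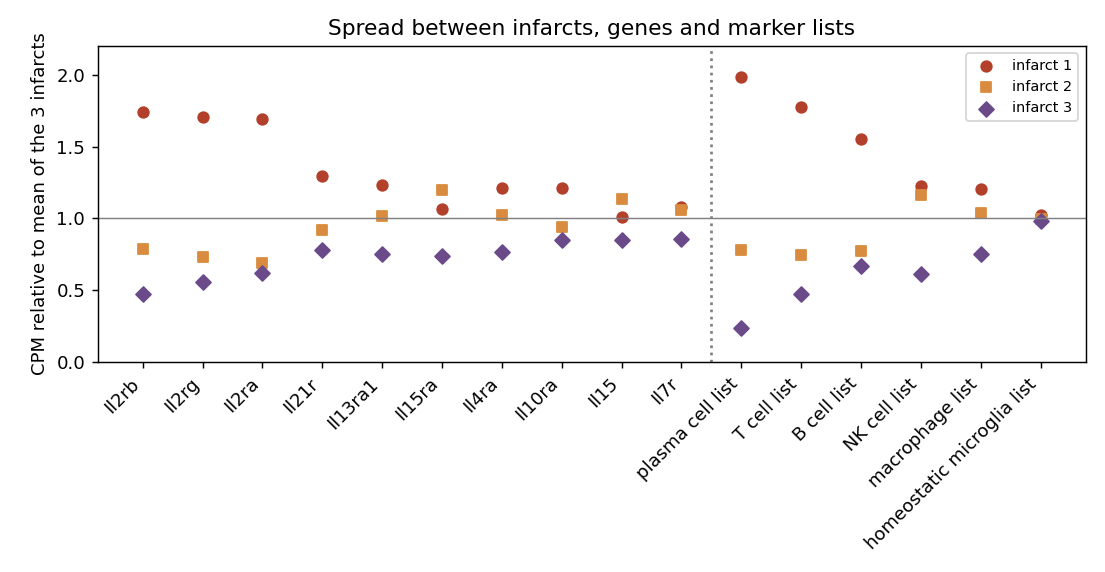
CPM of each gene, and summed CPM of 6 marker lists, in infarcts 1, 2 and 3 relative to the mean of the 3 infarcts. Genes are ordered by the ratio of the highest to the lowest infarct. *Il2rb*, *Il2rg*, and *Il2ra* (ratios 3.68, 3.05 and 2.74) are the genes spread most and *Il7r* (1.26) least, and the lists run from plasma cells (8.43) and T cells (3.74) to homeostatic microglia (1.04).

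Next, the 10 genes were set against *Ptprc*, which encodes the CD45 antigen of leukocytes and microglia and which itself had 5062, 3419 and 2823 counts in infarcts 1, 2 and 3, against 111, 76 and 45 in contralateral cortices. Per 100 counts of *Ptprc*, *Il7r* had 72.1, 113 and 120 counts in the infarcts against 16.2, 21.1 and 35.6 in contralateral cortices, and it was the only gene of the 10 with all infarcts above all contralateral cortices on this scale. *Il4ra* had 28.8, 39.2 and 38.1 in infarcts and 152, 201 and 229 in contralateral cortices. The infarct values were also below all contralateral values for *Il13ra1*, *Il10ra*, *Il21r*, *Il15*, and *Il15ra*. For *Il2rg*, *Il2rb*, and *Il2ra* the regions overlapped, with 5.95, 4.09 and 4.07 counts of *Il2rg* per 100 of *Ptprc* in infarcts and 0.901, 1.32 and 11.1 in contralateral cortices. For *Il7r*, *Il2rg*, *Il2ra*, *Il2rb*, and *Il15*, each contralateral value rests on fewer than 20 counts.

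The picture depended on the reference gene. Per 100 counts of *Csf1r*, the receptor that sustains microglia and macrophages, 9 of the 10 genes had higher values in infarcts without overlap. *Il7r* had 54.0, 70.3 and 53.2 counts in the infarcts against 0.793, 1.07 and 1.06 in contralateral cortices, and *Il10ra* had 30.7, 31.5 and 26.8 in infarcts and 7.27, 5.67 and 5.71 in contralateral cortices. *Il15ra* was lower against *Csf1r* as well, with 0.681, 1.01 and 0.582 in infarcts and 2.82, 1.73 and 1.13 in contralateral cortices. *Il15ra* was lower and *Il7r* higher in infarcts, without overlap, against each of *Ptprc*, *Itgam*, *Aif1*, and *Csf1r*. *Aif1* itself had only 14, 14 and 8 counts in contralateral cortices 1, 2 and 3, so contralateral values against it rest on few counts. The gene model *Gm49368* shares 68.7% of the exonic sequence of *Itgam* in the same orientation, so reads of *Itgam* may be missing from its counts.

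**Figure D4:**
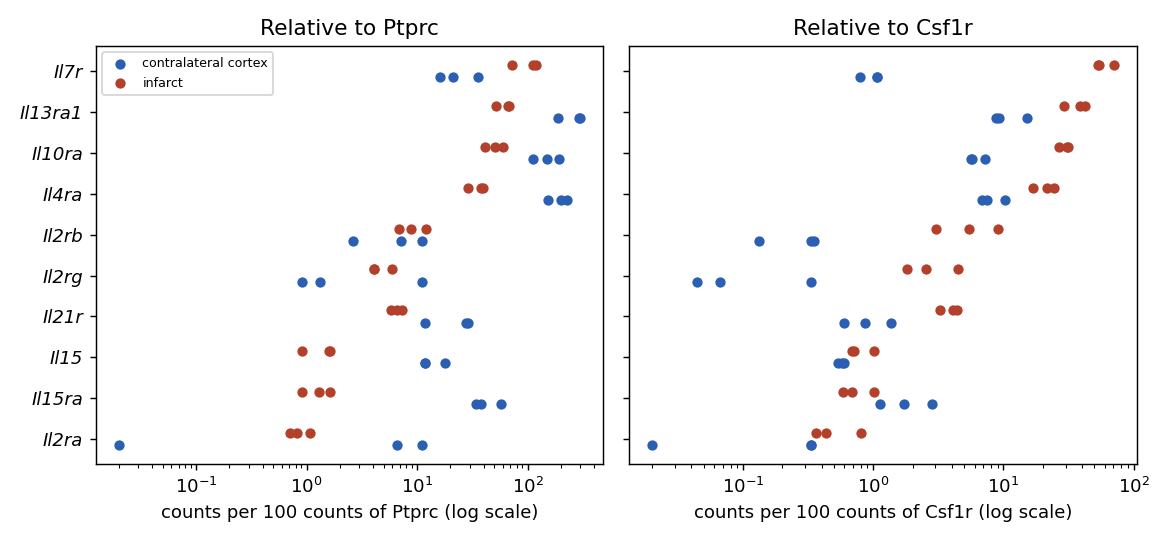
Counts of each gene per 100 counts of *Ptprc* (left) and per 100 counts of *Csf1r* (right) in every library, on log axes, with infarcts in red and contralateral cortices in blue. A value of 0 is drawn at 0.02. Infarcts lie to the right for *Il7r* in both panels and to the left for *Il15ra* in both. *Il4ra*, *Il10ra*, *Il13ra1*, *Il21r*, and *Il15* change sides.

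The genes that act with these receptors were taken from a list of 52 ligands, receptor chains, kinases, STAT factors, inhibitors and target genes, written from their known roles. Of these, 40 passed the filter on low counts, 31 were called higher in infarcts and 2 lower, where 25.7% and 20.9% of all tested genes were called. Their median log2FC was 2.56, and 2.52 with the 6 genes that were at 3 counts or fewer in every contralateral library set to their lowest possible fold change. These 6 genes, all among the 31, could pass the filter only through the infarcts, so their calls carry no weight and their values are given without *p*.

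Ligands were scarce. Of the 8 ligand genes, 6 did not pass the filter. *Il9* had 0 counts in every library, and *Il2*, with 4, 2 and 0 counts in infarcts 1, 2 and 3, and *Il13*, with 0, 2 and 2, were near 0. *Il10* had 9, 3 and 5 counts in the infarcts against 0 in every contralateral library. *Il21* had 21, 3 and 0 counts in infarcts 1, 2 and 3, against 3, 1 and 1 in contralateral cortices. *Tslp*, which signals through the chain of *Il7r*, had between 6 and 11 counts in the infarcts against between 2 and 9 in contralateral cortices. These 6 genes were not compared between regions.

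*Il7* rose, from 0.296 ± 0.104 CPM to 2.22 ± 1.46 CPM (SD, *n* = 3 each), a log2FC of 2.82 (SE 0.60, edgeR adjusted *p* = 0.00218, from the quasi-likelihood fit over all genes). It had 49, 21 and 18 counts in infarcts 1, 2 and 3, against 6, 6 and 2 in contralateral cortices, and the log2FC was 2.16 without infarct 1. The counts assigned to *Il4* fell by 1.52 on the log2 scale (SE 0.18, edgeR adjusted *p* = 5.31e-05). They amounted to between 14.3% and 17.1% of the counts of *Kif3a*, an adjacent gene of the other orientation, in all 6 libraries, and the strand setting of the counting is not known here. *Kif3a* was looked up after the values of *Il4* had been seen.

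The 4 further receptor chains were all called higher, *Il9r* through its infarct counts alone. *Il10rb*, the second chain of the interleukin-10 receptor, had 47.7, 55.4 and 42.3 CPM in infarcts 1, 2 and 3, against 2.93, 3.58 and 3.51 CPM in contralateral cortices, a log2FC of 3.86 (SE 0.20, edgeR adjusted *p* = 3.39e-07), beside 4.21 for *Il10ra*. *Crlf2* had a log2FC of 1.92 (SE 0.26, edgeR adjusted *p* = 1.41e-04). *Il9r*, the private chain for interleukin-9, had 41, 32 and 22 counts in the infarcts against 0 in every contralateral library, at least 11.3-fold higher. *Il13ra2*, a receptor that binds interleukin-13 and is regarded as a decoy, had 19, 74 and 21 counts in infarcts 1, 2 and 3, against 15, 6 and 7 in contralateral cortices. Its log2FC of 2.18 (edgeR adjusted *p* = 0.0111) was 1.28 without infarct 2 and 1.93 without contralateral cortex 2, and it was not called in either case.

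Of the 4 Janus kinases, 3 were called higher. *Jak3*, the kinase of the common gamma chain, had 55.0, 41.6 and 34 CPM in infarcts 1, 2 and 3, against 8.51, 5.79 and 6.18 CPM in contralateral cortices, a log2FC of 2.66 (SE 0.24, edgeR adjusted *p* = 9.03e-06). *Tyk2*, which serves the interleukin-10 and type 2 receptors, had a log2FC of 1.94 (edgeR adjusted *p* = 1.09e-05). *Jak2* had a log2FC of 1.04 (edgeR adjusted *p* = 3.70e-04), which was 0.91 without infarct 1 and 0.95 without contralateral cortex 1. *Jak1*, shared by nearly all of these receptors, had 360 ± 61.1 CPM in the infarcts against 227 ± 14.7 CPM in contralateral cortices. Its log2FC of 0.66 (SE 0.17, edgeR adjusted *p* = 0.00584) was below the fold change threshold.

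All 4 STAT factors of the list rose. The log2FC was 3.80 for *Stat5a* (SE 0.34, edgeR adjusted *p* = 7.89e-06) and 1.07 for *Stat5b* (SE 0.21, edgeR adjusted *p* = 0.00123), which together carry the signals of interleukins 2, 7 and 15. Without infarct 1 or without contralateral cortex 2, *Stat5b* was below the threshold, at 0.98 and 0.91. *Stat6*, the factor of interleukins 4 and 13, had 110, 92.0 and 76.8 CPM in infarcts 1, 2 and 3, against 12.6, 12.7 and 14.5 CPM in contralateral cortices, a log2FC of 2.81 (SE 0.18, edgeR adjusted *p* = 1.04e-06). The log2FC of *Stat3*, the factor of interleukin-10, was 2.18.

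Inhibitors of these pathways did not move together. *Ptpn6*, a phosphatase of hematopoietic cells, had a log2FC of 4.6 (SE 0.28, edgeR adjusted *p* = 8.51e-07), and *Socs3*, an inhibitor induced through STAT3, 3.44 (SE 0.21, edgeR adjusted *p* = 8.70e-07). *Cish*, an inhibitor induced through STAT5, had 3.58, 4.19 and 2.73 CPM in infarcts 1, 2 and 3, against 3.40, 3.91 and 3.78 CPM in contralateral cortices, with overlapping regions and a log2FC of -0.08 (SE 0.28, edgeR adjusted *p* = 0.820). *Socs2*, also induced through STAT5, had a log2FC of 0.65 (SE 0.24, edgeR adjusted *p* = 0.0343) and *Ptpn2* 0.34 (SE 0.16, edgeR adjusted *p* = 0.0890), and neither was called. *Socs1* did not pass the filter, with 20, 5 and 5 counts in infarcts 1, 2 and 3, against between 1 and 2 in contralateral cortices.

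Of 6 targets of STAT5 in cell survival and regulatory T cells, 5 were tested, with a median log2FC of 0.18. Of these, 2 were called higher and 1 lower, where 25.7% and 20.9% of all tested genes were called. Nothing is read from so few calls. *Pim1*, a kinase that supports survival, had a log2FC of 3.54 (SE 0.24, edgeR adjusted *p* = 1.52e-06) and *Mcl1*, a survival factor of the BCL2 family, 2.45 (SE 0.16, edgeR adjusted *p* = 1.23e-06). *Pim2*, a related kinase, fell by 1.37 on the log2 scale (SE 0.26, edgeR adjusted *p* = 0.00104). *Bcl2* had a log2FC of 0.18 and *Bcl2l1* one of -0.22, and neither was called. *Foxp3*, which defines regulatory T cells, had 10, 4 and 6 counts in the infarcts against 2, 0 and 0 in contralateral cortices and did not pass the filter.

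Of 15 targets of STAT6 in alternative activation, 11 were tested and all 11 were called higher, with a median log2FC of 3.73, or 3.51 with 3 genes at their bounds. Those 3 (*Arg1*, *Chil3*, and *Pdcd1lg2*) could pass the filter only through the infarcts. *Chil3*, a chitinase-like protein of alternatively activated macrophages, was at least 37.9-fold higher. *Fcer2a*, the low-affinity IgE receptor, had the smallest change, with a log2FC of 1.51 (SE 0.40, edgeR adjusted *p* = 0.00742). The list was not uniform across infarcts, as was seen when the counts of further members were inspected. *Arg1*, the arginase of alternatively activated macrophages, had 11, 117 and 97 counts in infarcts 1, 2 and 3, *Retnla* 0, 20 and 19, and *Alox15* 4, 33 and 22, with 3 counts or fewer in every contralateral library. In these genes infarct 1 was the lowest. It was the highest on the CPM scale in 8 of the 11 tested targets, among them *Mrc1*, the mannose receptor, with 223, 162 and 113 CPM and *Irf4*, a transcription factor, with 65.9, 29.6 and 14.5 CPM, and the whole list summed to 657, 550 and 394 CPM. *Retnla*, *Alox15*, *Ccl17*, and *Ccl24* did not pass the filter.

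Of 5 genes induced by interleukin-10, 4 were called higher, *Il1rn* and *Bcl3* through their infarct counts alone. *Il1rn*, the interleukin-1 receptor antagonist, had 343, 386 and 400 counts in infarcts 1, 2 and 3, against 0, 0 and 1 in contralateral cortices, at least 132-fold higher. *Bcl3*, near 0 in contralateral cortices as well, was at least 23.9-fold higher. Values of log2FC were 2.34 for *Sbno2* and 1.38 for *Etv3*, both transcriptional regulators. *Nfil3* had the smallest change, with a log2FC of 0.74 (SE 0.20, edgeR adjusted *p* = 0.00786), below the fold change threshold.

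**Figure D5:**
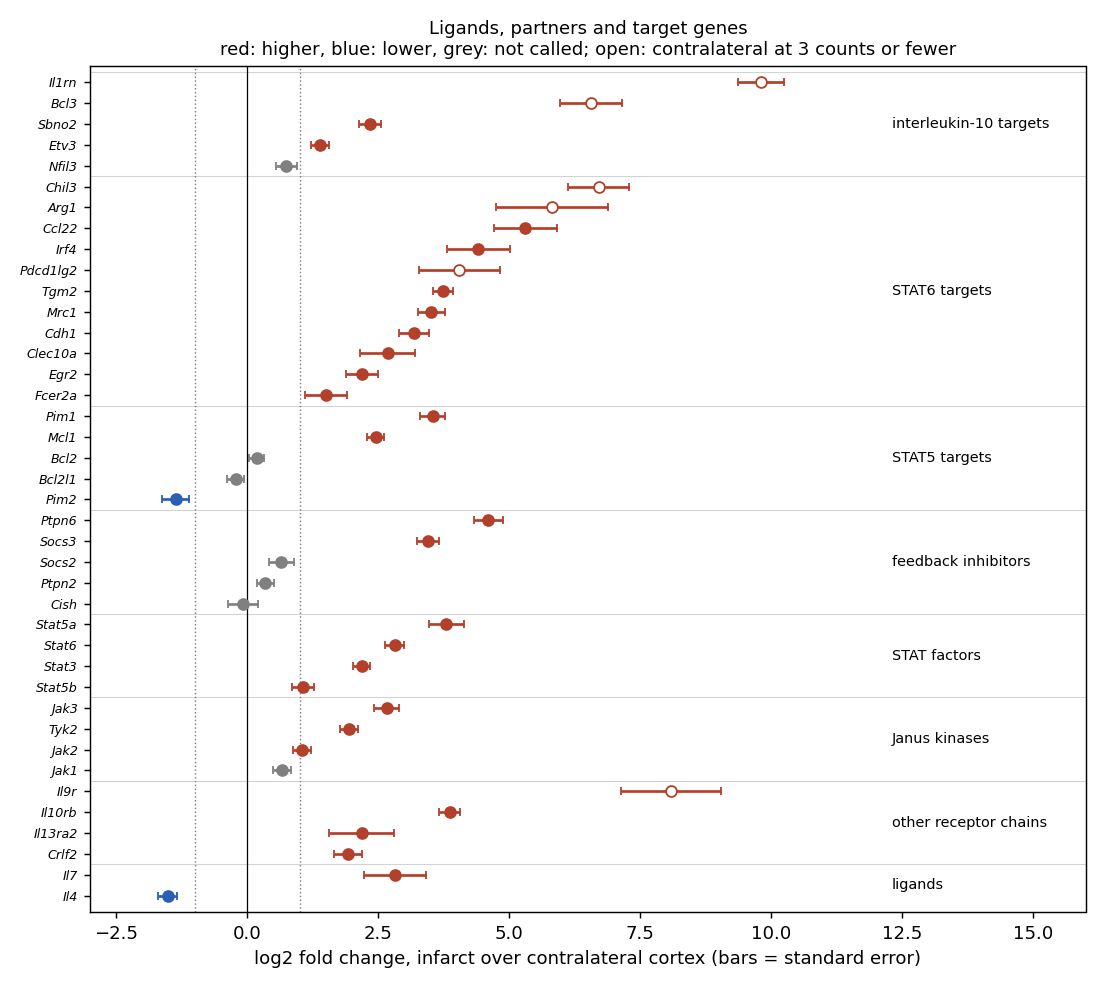
The log2FC of the 40 tested ligands, receptor chains, kinases, STAT factors, inhibitors and targets, with bars of 1 standard error, grouped by role. Red genes were called higher in infarcts (31), blue genes lower (2) and grey genes were not called (7), dotted lines mark the fold change threshold, and open circles are genes at 3 counts or fewer in every contralateral library, whose fitted values depend on the model. STAT factors and STAT6 targets lie to the right of the threshold, and inhibitors and STAT5 targets lie on both sides of it.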

How the data were processed

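RNA was measured in 3 infarcts and 3 contralateral cortices. Per the labels and the methods of the study, the authors prepared stranded mRNA libraries, trimmed paired reads with Trimmomatic 0.32, aligned them to GRCm38 with STAR 2.5.2b and deposited raw htseq-count counts per gene. The annotation and strand setting of the counting are not given in the sources used here. Between 65.7% and 73.4% of tallied reads fell on genes, and the 5 entries that name no gene were left out. Identifiers were matched to GENCODE M21 (45229 of 46078).

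Genes were kept with filterByExpr, libraries were scaled with TMM, and the regions were compared across all genes with edgeR 4.0.16 in R 4.3.3 (glmQLFit with robust dispersions, glmQLFTest, Benjamini-Hochberg adjustment over the 15554 tested genes). Standard errors were derived from the *F* statistic. A fold change against a region with 3 counts or fewer in every library was computed with each of those libraries at 3 counts, covers counting error only and is a lower bound. The procedure was also run on simulated counts in which 195 of 15393 genes were changed. Of these, 188 were called, and 6 unchanged genes were called. A far larger share of genes was called in the real data, so this run does not measure errors in that setting.

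The genes described and all lists were chosen with earlier results of these data known. The text names the 10 genes, any ligand, receptor chain, kinase, STAT factor or inhibitor of the list, the called targets with the largest and smallest change in each list, those called lower, and *Ptprc*, *Itgam*, *Aif1*, and *Csf1r* as reference genes. *Arg1*, *Retnla*, *Alox15*, *Irf4*, *Mrc1*, *Pdcd1lg2*, *Ccl17*, *Ccl24*, *Bcl2*, *Bcl2l1*, *Foxp3*, *Bcl3*, *Sbno2*, *Nfil3*, and *Kif3a* were named after their values had been seen. Single genes of the cell type marker lists were also named after their values had been seen. Lists were counted, not tested as sets, and 1 gene planned for them was removed before counting and is not reported here. Protein sequences were not used here, and RefSeq promoter windows were searched for short motifs. Alternatives were DESeq2 1.42.0, voom of limma 3.58.1, RLE size factors, library totals, no filter, 10 counts in each library, calls without a fold threshold, the replicate number as a block, and each library left out.

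Same-numbered libraries did not deviate together (correlations across genes of -0.205, 0.111 and 0.023), and the numbers were not taken to pair them. With 3 libraries per region, these correlations cannot exclude that infarct and contralateral libraries came from the same mice. The sample records do not state whether they did.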

Additional observations from a re-analysis of the deposited data

How the results depend on the processing

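Of the 10 genes, 9 were called higher under each other count model, scaling and threshold. With 10 counts required in every library, 4 were called, since *Il2rg*, *Il21r*, *Il2ra*, *Il2rb*, and *Il15* were no longer tested, and leaving out single libraries gave between 9 and 10. The 31 partners and targets called higher became 21 with 10 counts in every library and 36 with no filter, and the 2 called lower (*Il4* and *Pim2*) numbered 2 under every alternative. Over all genes, calls ranged from 2789 to 5324 higher and from 2504 to 4787 lower. Scaling by library totals moved the median log2FC over all genes by 0.20. With the replicate block, 9 of the 10 genes and 31 partners and targets were called, and 3945 genes were higher and 3222 lower, so no count moved by over 1.5 times. Calls were lost with 1 library left out for *Il13ra2*, *Jak2*, and *Stat5b*. Per 100 counts of *Ptprc*, 7 of the 10 genes had a lower mean in infarcts, compared with 2 for *Itgam*, 2 for *Aif1* and 1 for *Csf1r*. With each library left out in turn this count was between 7 and 8. Contralateral counts of 5 or fewer limit the fold changes of *Il2rg* and *Il2ra*, and 0 to 21 counts per library those of the untested ligands.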
